A study of Mus musculus with 4 samples.

Results

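Hox proteins find their DNA sites together with cofactors of the TALE class, homeodomain proteins named for extra amino acids in a loop of the DNA-binding domain. The chromatin at 8 genes for such cofactors, Pbx2, Pbx3, Pbx4, Meis1, Meis2, Meis3, Pknox1 and Pknox2, is described here in mouse embryonic stem cells with and without Hox genes. The genes were chosen by name, as 8 of 21887 protein-coding genes, and a peak belonged to a gene when it overlapped the gene body or 50 kb on either side. By this rule 274 of 213705 listed peaks lay at the 8 genes in wt replicate 1 and 304 of 216795 in wt replicate 2. The Hox-/- lists gave 271 of 191704 in replicate 1 and 290 of 200214 in replicate 2.

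Open chromatin had been mapped by ATAC-seq, in which a transposase cuts and tags accessible DNA. Both groups were mouse embryonic stem cells grown with serum, the cytokine LIF, a GSK-3 inhibitor and a MEK inhibitor. One group carried the genotype wt and the other Hox-/-, which the study's title describes as without any Hox function, and each had 2 libraries. Nothing in the labels says whether the libraries of a genotype came from separate cultures or clones. The p-values therefore set the genotypes against differences between these libraries, which may be technical. Strain, sex and the way the Hox genes were removed were not used here.

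PBX proteins bind DNA as partners of Hox proteins and sharpen which sites a Hox protein prefers. MEIS and PKNOX proteins, the latter also called PREP, pair with PBX and help to keep it in the nucleus. MEIS proteins also contact some Hox proteins directly. PBX and PKNOX proteins have partners and functions outside Hox biology, so their genes are used in cells that express little Hox.

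The data hold a list of called peaks for each library, and the number of reads behind a list is unknown. The genotype label was checked on the 4 Hox clusters, where 183 and 188 peaks were listed in the wt libraries against 6 and 4 in the Hox-/- libraries. All 8 stem cell markers, among them Pou5f1, Sox2 and Nanog, had a peak within 1 kb of a gene end in each library, but so had 3 or 4 of 4 markers of each of trophoblast, endoderm, mesoderm, neural cells and fibroblasts, so peaks at gene ends do not separate these cell types. The weakest peak of each list had a −log10 q of 1.3. The list of Hox-/- replicate 1 is the shortest, so numbers of peaks are given beside ranks within a library. Peaks are ranked from 1, the peak whose −log10 p is the largest of its library.

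To compare libraries, peaks that overlapped by at least 1 bp were merged into 208141 regions, of which 122749, or 59.0%, were listed in all 4 libraries. The 8 genes held 269 regions, and 179 of them, or 66.5%, were listed in all 4. A further 28 were listed in 3 libraries, 23 in 2 and 39 in 1. Ranks below are those among the 122749 common regions unless said otherwise. The shift of a region is its mean log2 rank in wt minus that in Hox-/-, so a positive shift means that the region was ranked higher, toward the strongest peaks, in Hox-/-.

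Promoter sequences show where the peaks sat. The 250 bases before the RefSeq start (GRCm38.p6) could be matched for 5 of the 8 genes, Pbx2, Pbx4, Meis1, Meis2 and Meis3. Of these, 4 are printed 5′ to 3′ along the gene's own strand, because the summit, the point of most cutting within a peak, fell inside the stretch for 3 of them and well after it for the other. Capitals mark the bases from the first to the last library's summit inside the stretch.
Pbx4: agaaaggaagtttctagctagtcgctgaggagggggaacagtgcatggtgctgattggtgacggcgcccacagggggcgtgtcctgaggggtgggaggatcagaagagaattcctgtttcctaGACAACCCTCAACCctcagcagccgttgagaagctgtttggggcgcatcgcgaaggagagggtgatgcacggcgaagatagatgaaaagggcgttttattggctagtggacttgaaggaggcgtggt
Meis1: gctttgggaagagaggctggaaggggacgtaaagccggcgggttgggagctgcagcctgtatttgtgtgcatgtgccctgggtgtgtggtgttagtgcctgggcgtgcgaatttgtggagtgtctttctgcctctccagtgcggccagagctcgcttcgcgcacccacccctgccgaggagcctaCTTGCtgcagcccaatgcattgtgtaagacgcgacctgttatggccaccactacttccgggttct
Meis3: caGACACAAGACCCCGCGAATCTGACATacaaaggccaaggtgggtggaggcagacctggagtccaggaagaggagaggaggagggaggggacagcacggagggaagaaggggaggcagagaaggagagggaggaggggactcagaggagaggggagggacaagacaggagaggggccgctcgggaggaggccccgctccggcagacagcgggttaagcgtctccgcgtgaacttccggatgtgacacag
Pbx2: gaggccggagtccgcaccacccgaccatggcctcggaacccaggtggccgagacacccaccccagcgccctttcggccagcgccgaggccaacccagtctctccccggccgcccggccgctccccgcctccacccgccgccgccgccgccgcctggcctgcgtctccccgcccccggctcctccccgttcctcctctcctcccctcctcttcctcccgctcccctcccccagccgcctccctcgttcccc
The Pbx4 stretch is chr8:69832374-69832623, plus strand, and the summits of all 4 libraries fell 114 to 127 bases before the start. The Meis1 stretch is chr11:19018970-19019219, minus strand, and its 4 summits lay within 5 bases of sequence, 61 to 65 bases before the start. Wt and Hox-/- libraries thus placed these summits at almost the same bases. The Meis3 stretch is chr7:16175145-16175394, plus strand. Its summits lay 267 and 223 bases before the start in wt replicates 1 and 2 and 228 and 248 bases before it in Hox-/- replicates 1 and 2, the first of these being just outside the printed bases. The Pbx2 stretch is chr17:34592009-34592258, plus strand. It held no listed peak in any of the 4 libraries, and the nearest summit lay 676 to 728 bases after the start, inside the gene. The Meis2 stretch, chr2:116064620-116064869 on the minus strand, also held none, with the nearest summits 1108 to 1143 bases before the start in the 4 libraries. This start, at 116064619, lies inside the gene, whose end on that side is 116067537. The region at that end, described below, was listed in all 4 libraries. Of the 5 starts only that of Pbx2 is an end of its gene, and the others lie inside. Pbx2, without a peak in its stretch, had the highest GC content of the 5 at 77.6%, against 55.6% for Pbx4, 59.6% for Meis1, 63.6% for Meis3 and 47.6% for Meis2, with a median of 52.4% over 32851 promoter stretches. CpG dinucleotides relative to base content reached 0.903 for Pbx2, 0.709 for Pbx4, 0.595 for Meis1, 0.55 for Meis3 and 0.497 for Meis2, all above the median of 0.373.

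The same 5 stretches were searched on both strands for TGACAG, a core bound by MEIS and PKNOX, for TGATTGAC, a site for PBX with a MEIS or PKNOX partner, and for TGATNNAT, a site for PBX with Hox. The first 2 share the letters TGAC, but neither holds the other. None of the 3 motifs was found in any of the 5, where 15.9%, 0.691% and 7.68% of all promoter stretches hold them. This says only that these letters are not in these 250 bases.

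Peak numbers at the 8 genes differed more between genes than between genotypes. Pknox2 had the most peaks, 67 and 75 in the wt libraries and 70 and 70 in the Hox-/- libraries, which put its window at the 99.5th percentile of protein-coding genes. Meis2 came next with 47 and 49 against 43 and 47, at the 96.9th percentile. Both are long genes, of 256 and 206 kb, and per 100 kb of window they stood at the 68.2nd and 52.5th percentiles. The compact Pbx2 locus was the most densely covered, with 25.7 peaks per 100 kb in wt and 29.0 in Hox-/-, at the 90.7th percentile. Its 105 kb window also holds 10 other protein-coding genes. Pbx3 was the sparsest, with 20 and 23 peaks in wt and 20 and 21 in Hox-/-, or 7.15 and 6.82 per 100 kb. In none of the 8 windows did the peak numbers of the 2 genotypes stand fully apart. The difference of means ran from 3.5 more peaks in Hox-/- at Pbx2 to 3.5 fewer at Meis3, with exact two-sided permutation p-values of 0.67 to 1 where 2 libraries against 2 cannot go below 0.33. Since the lists differ in length, the 190000 strongest lines of each were also compared. The differences then ran from −1.0 at Pknox1 to 3.5 at Pknox2, and the direction turned at Pbx3 (−1.0 to 1.5), Meis1 (−2.0 to 3.0), Meis2 (−3.0 to 2.0) and Pknox2 (−1.0 to 3.5).

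**Figure D1:**
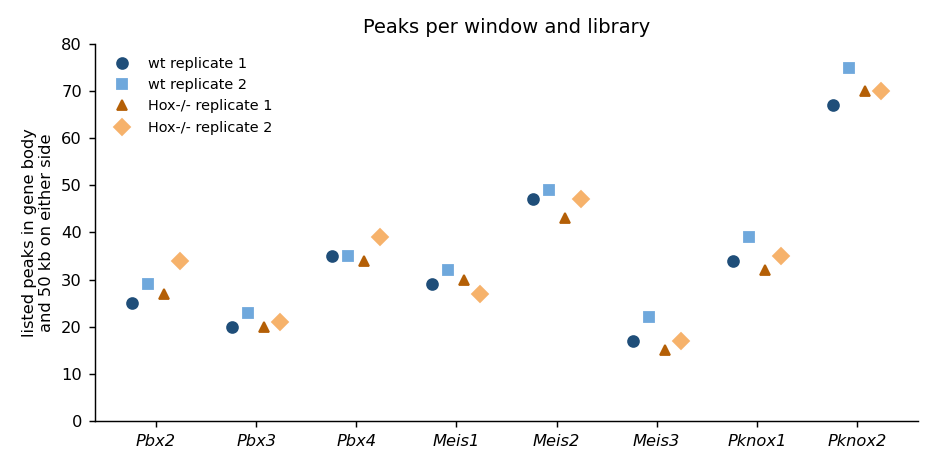
Number of listed peaks (vertical axis) in the window of each gene (horizontal axis), with 1 point per library. The 4 points of a gene lie close together, and Pknox2 stands above the rest with 67 to 75 peaks.

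Regions at the ends of the genes themselves were shared by both genotypes. Of 15 regions within 1 kb of an end of their own gene, 12 were listed in all 4 libraries. The other 3 were weak, chr17:34591127-34591387 at Pbx2 and chr2:34371139-34371383 at Pbx3, both in Hox-/- replicate 2 only, and chr2:115860199-115860444 at Meis2 in wt replicate 1 and Hox-/- replicate 2. The strongest region of a window was at the gene's own end for 1 gene, Pbx4, only at the end of another gene for 2, Pbx2 and Pknox1, and at no gene end for the other 5. The leading open sites of Pbx3, Meis1, Meis2 and Pknox2 thus lay within the gene body and that of Meis3 in its flank.

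**Figure D2:**
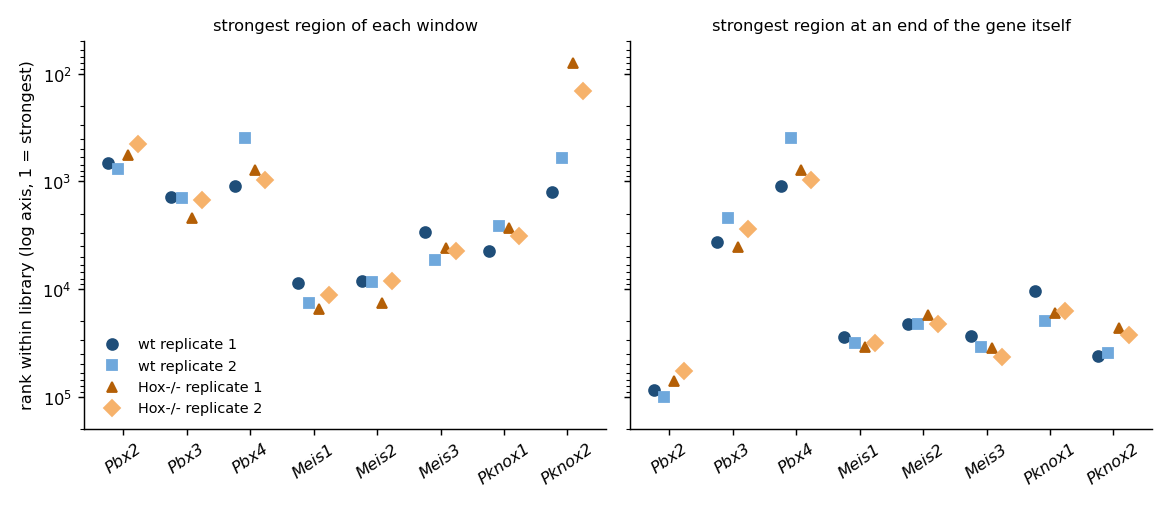
Within-library rank among regions listed in all 4 libraries (vertical log axis, 1 is the strongest) of the strongest region in each window (left) and of the strongest region at an end of the gene itself (right), with 1 point per library. Pknox2 is the gene whose strongest region has both Hox-/- points far above both wt points, at 80 and 146 against 1263 and 606.

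Over all 8 windows, 50 of the 179 common regions, or 27.9%, had both Hox-/- ranks above both wt ranks, where 20.5% of all common regions did. In the other direction 26, or 14.5%, had both Hox-/- ranks below both wt ranks, against 20.3% of all, and 103 overlapped. Pknox2 alone held 25 of the 50. Without it 25 of 139 regions, or 18.0%, were higher and 21, or 15.1%, lower. With regions ranked by fold, 41 (22.9%) were higher and 34 (19%) lower, against 21.3% and 18.9% of all. With the running median of neighbouring regions subtracted, 32 were higher and 32 lower, or 17.9% each, against 20.2% and 20.3% of all. The test across all common regions (limma on log2 ranks, Benjamini-Hochberg adjusted p under 0.05) called 0.0301% of regions as ranked higher in Hox-/- and 0.0114% as ranked lower. At the 8 genes it called 1 region higher, in Pknox2, and 0 lower, and 24 and 10 regions had an unadjusted p under 0.05. Together these were 19% of the 179, against 10.4% of all common regions, and 16 of the 34 were in Pknox2. Besides Pknox2, only Pbx3 had window medians that did not overlap between the genotypes. Of 12828 gene windows with at least 10 common regions, 19.3% had higher medians in Hox-/- without overlap and 21% lower ones.

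**Figure D3:**
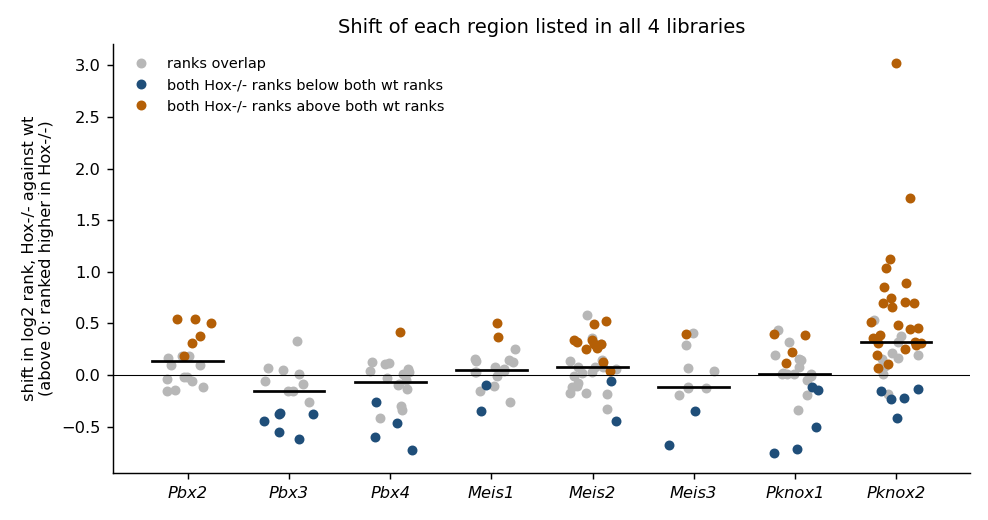
Shift in log2 rank (vertical axis, above 0 is ranked higher in Hox-/-) of every region listed in all 4 libraries, by gene, with 1 point per region and a bar at the median. Colours mark regions whose 2 Hox-/- ranks lie above or below both wt ranks. The points of Pknox2 reach 3.02, while those of the other 7 genes stay between −0.76 and 0.59.

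Regions listed in both libraries of 1 genotype and neither of the other were few. There were 7 of 269 listed in wt only, or 2.60%, against 3.84% of all regions, and 1 in Hox-/- only, or 0.372%, against 1.23% of all. The 7 were 1 each at Pbx3, Pbx4, Meis2, Meis3 and Pknox1 and 2 at Pknox2, and the single Hox-/- region was also at Pknox2. None of the 8 lay within 1 kb of an end of its gene. Only 15 regions lay at such ends, too few at shares of 3.84% and 1.23% for this to say much about them. At Pbx3 the region was chr2:34363864-34364093 in the gene body, with folds of 2.84 and 2.62 over background in wt replicates 1 and 2. In the flanks lay chr8:69800148-69800386 at Pbx4 (2.91 and 3.12), chr2:116077925-116078181 at Meis2 (3.95 and 2.60) and chr7:16132381-16132660 at Meis3 (3.30 and 2.99). Within the genes lay chr17:31586221-31586665 at Pknox1 (2.60 and 2.56) and, at Pknox2, chr9:37028216-37028468 (2.90 and 3.20) and chr9:37080092-37080294 (2.72 and 2.91). All 7 were weak sites. The Hox-/- region, chr9:36866530-36866949 in the flank of Pknox2, had folds of 5.72 and 4.30 in replicates 1 and 2.

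Among the PBX genes, Pbx3 showed regions of lower rank in Hox-/-. PBX3 is a Hox partner studied for its role in hindbrain breathing circuits and in leukaemia. Over its 15 common regions the median rank was 56836 and 61164 in wt and 81330 and 91426 in Hox-/-, so the medians of the genotypes did not overlap. The difference of the libraries' median log2 ranks was −0.55, where replicates differed by 0.11 in wt and 0.17 in Hox-/-. The exact permutation p was 0.33, the lowest that 2 against 2 allows. This difference stood at the 0.179th percentile of 12828 gene windows with at least 10 common regions. Among those windows, 19.3% had Hox-/- medians above both wt medians and 21% had them below. The regions' own shifts had a smaller median, −0.15, and 6 of 15 regions were lower, 0 higher and 9 overlapping. Lower were thus 40%, against 20.3% of all common regions and 25.1% in the flanking 1 Mb. Higher were 0%, against 20.5% and 18.4%.

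The size of that difference depended on the regions and libraries used. With 1 library left out it was −0.63 to −0.46 over the same 15 regions, and without Hox-/- replicate 2 it was −0.35 over the 16 regions listed in the other libraries. Within the gene body alone, with 4 common regions, it was 0.19. Of the 6 lower regions 5 lay in the flanks, and the largest shift was in chr2:34164236-34164849, 6.61 kb outside the gene. It ranked 48900 and 61164 in wt and 76834 and 91426 in Hox-/-, a shift of −0.62 ± 0.23 (SE, n = 2 per genotype) with a limma adjusted p of 0.363. The strongest Pbx3 region, chr2:34249375-34250191 inside the gene and at none of its ends, ranked 1395 and 1413 in wt and 2192 and 1488 in Hox-/-. The region at the gene's end, chr2:34372410-34373759, ranked 3659 and 2183 against 4081 and 2800, so its genotypes overlapped. In the next 1 Mb on either side of the window, the own shifts of 207 regions had a median of −0.01, beside −0.15 in the window. The difference of medians, −0.55 in the window, was −0.45 once that of the flanks was subtracted.

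Pbx2, a broadly expressed PBX gene, had a single region in its short body. That region, chr17:34592786-34593425, is the one that begins after the start printed above. It ranked 86978 and 100536 in wt and 71766 and 57636 in Hox-/-, a shift of 0.54 ± 0.21 (SE) with a limma adjusted p of 0.373, so both Hox-/- ranks were above both wt ranks without passing the test. It is a weak site, with folds of 3.48 to 5.20 over background. The largest shift, by a small margin, was in chr17:34562623-34563094, 29.2 kb outside the gene, which ranked 79179 and 83607 against 46229 and 67442, with a limma adjusted p of 0.446. The strongest region of the window, chr17:34603471-34604457, lies at ends of Agpat1 and Rnf5 and ranked 673 and 760 against 569 and 447. Of the 18 common regions 6 (33.3%) were higher, 0 lower and 12 overlapping, where 20.5% of all common regions were higher and 20.3% lower. In the flanking 1 Mb 26.1% were higher and 15.8% lower. The median shift was 0.13, against 0.06 in that flanking 1 Mb.

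Pbx4, the PBX gene known for expression in the testis, had by contrast one of the strongest gene ends of the set. The region with the promoter printed above, chr8:69832256-69832958, ranked 1097 and 392 in wt and 790 and 968 in Hox-/-, with folds of 21.1 and 23.9 against 21.9 and 22.0. Both Hox-/- ranks lay between the wt ranks. The largest shift was in chr8:69848923-69849485 inside the gene, which ranked 5157 and 4608 against 10523 and 6157, a shift of −0.72 ± 0.28 (SE) with a limma adjusted p of 0.382. Of 20 common regions 1 (5%) was higher, 4 (20%) lower and 15 overlapping, where 20.5% of all common regions were higher and 20.3% lower. The difference of medians was 0.23 while the median of the regions' own shifts was −0.07, so the 2 measures differ in sign.

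Among the MEIS genes no region passed the test. Meis1, a partner of Hox proteins in blood stem cells and leukaemia, is the sole protein-coding gene in its 239 kb window. Its strongest region, chr11:18957101-18958329 within the gene, ranked 8795 and 13601 in wt and 15296 and 11292 in Hox-/-. The 3 regions at its end included chr11:19020278-19021182, with ranks of 27907 and 31794 against 34969 and 31464, and chr11:19018818-19019230, which holds the printed summits and ranked 69886 and 49888 against 51807 and 54742. The third, chr11:19019588-19020162, was weak, with ranks of 118440 and 116014 against 122162 and 113406. The genotypes overlapped at each of the 3. Of 18 common regions 2 (11.1%) were higher, 2 (11.1%) lower and 14 overlapping, with a median shift of 0.04. Of all common regions 20.5% were higher and 20.3% lower. The largest shift with ranks apart, in chr11:19007516-19008378, was 0.51 ± 0.26 (SE) with a limma adjusted p of 0.518.

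Meis2, a regulator of limb, heart and cranial neural crest development, had 33 common regions, most of them within the gene. Of these 11 (33.3%) were higher, 2 (6.06%) lower and 20 overlapping, where 20.5% of all common regions were higher and 20.3% lower. Over the 44 common regions of the flanking 1 Mb, 13.6% were higher and 29.5% lower. The median shift was 0.08, against −0.04 in that flanking 1 Mb. The strongest region, chr2:115872821-115873407, ranked 8502 and 8627 in wt and 13552 and 8489 in Hox-/-. The region at the gene's end, chr2:116066565-116067521, ranked 21286 and 21088 against 17485 and 21227. Neither of these separated the genotypes. The largest shift with ranks apart was in chr2:116041644-116042077, a weak site in the gene that ranked 114060 and 112738 against 69438 and 89495. Its shift was 0.52 ± 0.16 (SE) with a limma adjusted p of 0.269.

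Meis3, which acts in hindbrain patterning, had 11 common regions, 1 higher, 2 lower and 8 overlapping, with a median shift of −0.12. Higher were 9.09% and lower 18.2%, against 20.5% and 20.3% of all common regions. The region over the printed promoter, chr7:16174890-16176121, ranked 27095 and 34481 in wt and 35085 and 43064 in Hox-/-. Both Hox-/- ranks were below both wt ranks, by −0.35 ± 0.25 (SE) with a limma adjusted p of 0.658. The strongest region, chr7:16129384-16130658 in the flank, ranked 2930 and 5391 against 4181 and 4447. The largest shift was in chr7:16229714-16230269, 43.2 kb outside the gene, with ranks of 42224 and 52932 against 81330 and 70600 and a limma adjusted p of 0.337.

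Pknox1, needed for survival of the early mouse epiblast, had 24 common regions, 4 higher, 5 lower and 15 overlapping, with a median shift of 0.01. Higher were 16.7% and lower 20.8%, against 20.5% and 20.3% of all common regions. The 2 ends of Pknox1 were open in all libraries. The region chr17:31564070-31565059 ranked 10442 and 19791 in wt and 16708 and 16170 in Hox-/-, and chr17:31606442-31606994 ranked 55333 and 39050 against 29103 and 40322. Genotypes overlapped at both. They also did at the strongest region of the window, chr17:31519481-31520448 at ends of Ndufv3 and Wdr4, with ranks of 4478 and 2572 against 2699 and 3246. The largest shift was in chr17:31583255-31583629 within the gene, which ranked 61000 and 47340 against 93672 and 88209, a shift of −0.76 ± 0.22 (SE) with a limma adjusted p of 0.255.

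Pknox2, the second PREP gene and the more tissue-restricted one, had the most regions with ranks apart. Its common regions had a median rank of 62983 and 60126 in wt and 53297 and 51404 in Hox-/-, and replicates differed by 0.06 and 0.05 in log2. The genotypes did not overlap, with a difference of medians of 0.23 and an exact permutation p of 0.33, the lowest possible. It stood at the 92.7th percentile of gene windows, next to Pbx4 at the 92.3rd. With 1 library left out it was 0.20 to 0.26 over the same 40 regions. When the regions listed in the 3 remaining libraries were used instead, 42 regions gave 0.08 without wt replicate 1, 44 gave 0.01 without Hox-/- replicate 2, 41 gave 0.33 without wt replicate 2 and 42 gave 0.23 without Hox-/- replicate 1. Of 40 common regions 25 (62.5%) were higher, 5 (12.5%) lower and 10 overlapping, where 20.5% of all common regions were higher and 20.3% lower. For 34 the shift was above 0, and the median of the shifts was 0.32. Inside the gene 20 of 33 regions were higher and 5 lower, and in the flanks 5 of 7 were higher and 0 lower. Both gene ends were ranked higher in Hox-/-. The end region chr9:37146411-37147641 ranked 41994 and 39641 in wt and 23301 and 26923 in Hox-/-, a shift of 0.70 ± 0.23 (SE) with a limma adjusted p of 0.307. The end region chr9:36890540-36891027 ranked 57886 and 59444 against 35675 and 48930, a shift of 0.49 with a limma adjusted p of 0.519.

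The single region of the 8 genes that passed the test was chr9:37053795-37054797, 1003 bp within the Pknox2 body. It ranked 9442 and 8960 in wt and 2823 and 2799 in Hox-/-, a shift of 1.71 ± 0.25 (SE) with a limma adjusted p of 0.0253. The authors' −log10 q for its best peak was 220 and 226 in wt and 255 and 369 in Hox-/-, while the fold was 14.4 and 15.6 against 15.1 and 15.5. These fold values overlapped between the genotypes, though values of different lists are comparable only by rank. The call was lost, with the shift nearly the same at 1.72 and 1.70, when Hox-/- replicate 1 (limma adjusted p 0.522) or replicate 2 (0.388) was left out, fits in which 0 of all common regions were called higher. It was also lost when the running median of neighbouring regions was subtracted, which left a shift of 1.3 (0.101). The strongest region of the window, chr9:37106710-37107680, moved further, from ranks of 1263 and 606 in wt to 80 and 146 in Hox-/-. Its shift was 3.02 ± 0.57 (SE), and its limma adjusted p of 0.0918 missed the threshold. Ranked by fold, the shift of the first of these regions was 0.30 (limma adjusted p 0.807) and that of the second 0.57 (0.642).

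These shifts were shared by the surroundings of Pknox2. In the next 1 Mb on either side, 87 common regions had a median shift of 0.42, with 69.0% higher and 1.15% lower, and the window's median minus that of its flanks was −0.10. In steps of 1 Mb from the middle of the gene, the median shift was between 0.35 and 0.42 from 3 Mb on the lower-coordinate side to 1 Mb on the other, and the steps just beyond had −0.17 over 6 regions and 0.07 over 17. Over the whole of chromosome 9 the 6777 common regions had a median shift of 0.01, with 21% higher and 20.8% lower. The median of the Pknox2 window was therefore not above that of its flanks. With the running median of neighbours subtracted, the regions with shifts of 1.71 and 3.02 had shifts of 1.3 and 2.61, with limma adjusted p-values of 0.101 and 0.171. Shifts of this size also occurred outside the window, where 8 of 196 regions within 3 Mb had a shift of at least 1.71 and the largest was 3.37. None of the other 7 genes had a flanking median of the regions' own shifts beyond 0.06 in either direction.

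**Figure D4:**
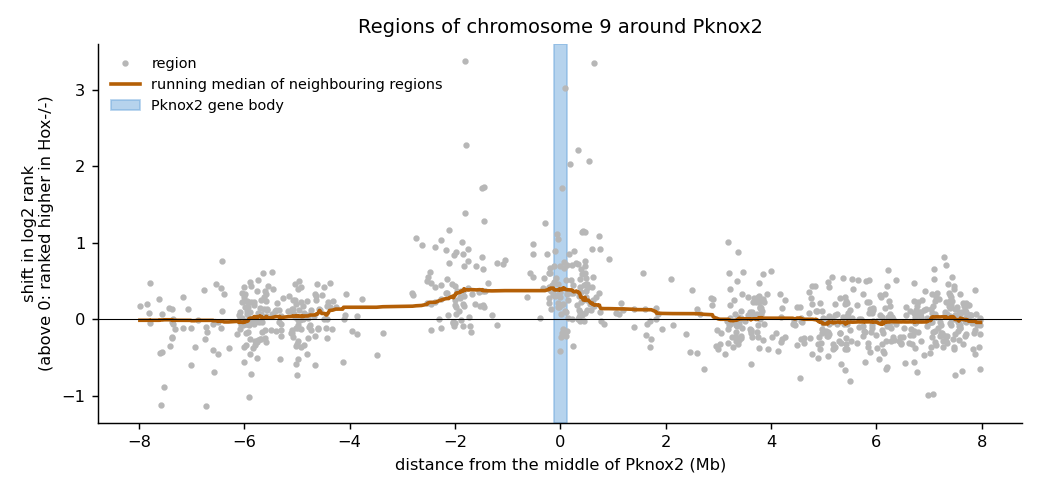
Shift in log2 rank (vertical axis, above 0 is ranked higher in Hox-/-) of common regions of chromosome 9 against distance from the middle of Pknox2 in Mb (horizontal axis), with a running median over neighbouring regions. The line stays raised over several Mb around the gene, which is the shaded band.

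The shifts also depended on the measure of strength. When regions were ranked by fold over background rather than by −log10 p, the median shift of the Pknox2 window was 0.06 and that of its flanks 0.09. The median shift of Pbx3 was −0.15 by −log10 p and −0.14 by fold, with flanks of −0.02 by fold. The differences of medians moved as well, from −0.55 to −0.79 for Pbx3 and from 0.23 to 0.10 for Pknox2. Larger moves were those of Meis3, from −0.02 to −0.42, and Pbx4, from 0.23 to −0.15. At equal fold, −log10 p grows with the number of fragments at a site, so the 2 measures weigh local coverage differently. The lists do not give that coverage, and its part in the Pknox2 shift was not tested.

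**Figure D5:**
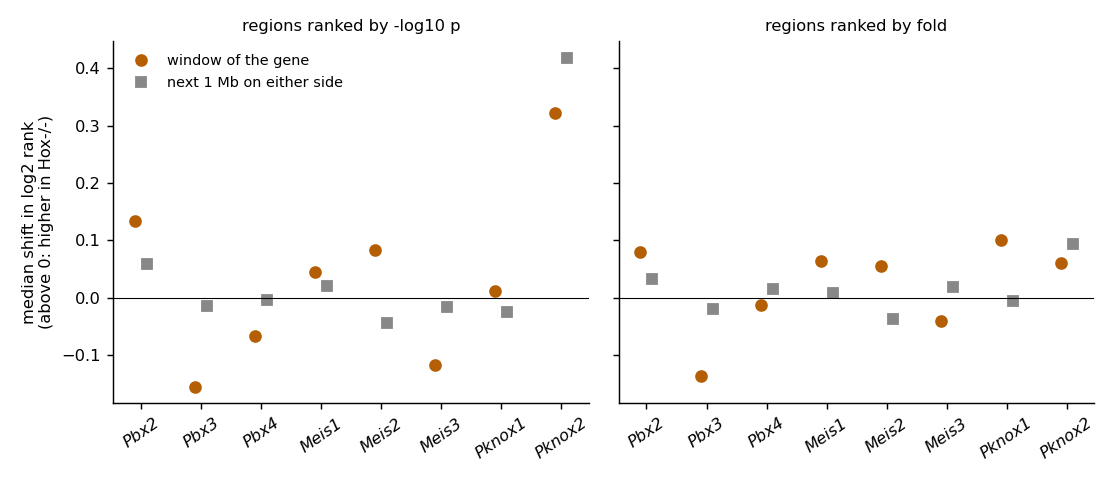
Median shift in log2 rank (vertical axis) of the common regions in each gene's window (circles) and in the next 1 Mb on either side (squares), with regions ranked by −log10 p (left) and by fold (right). For Pknox2 both symbols are high on the left, at 0.32 and 0.42, and both fall to 0.06 and 0.09 on the right, while Pbx3 keeps a window below its flanks in both panels.

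Other TALE homeobox genes, which do not act as classical Hox partners, served as a comparison list. Tgif1 and Tgif2, the Iroquois genes Irx1, Irx2, Irx3, Irx4, Irx5 and Irx6, and Mkx held 130 regions, 81 of them common. Of these 12, or 14.8%, were higher in Hox-/- and 17, or 21%, lower, and limma called 0 (3 had an unadjusted p under 0.05, and the lowest adjusted p was 0.380). There were 8 regions, or 6.15% of 130, listed in wt only and 5, or 3.85%, in Hox-/- only. At the cofactor genes these shares were 2.60% and 0.372%. The 8 cofactor genes without Pknox2 had 18.0% higher and 15.1% lower, and the difference between the lists was not tested.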

How the data were processed

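Open chromatin was mapped by ATAC-seq in 2 wt and 2 Hox-/- libraries of mouse embryonic stem cells, grouped by the genotype label. The submitters' processing notes name build mm10 and cutadapt 4.8, Bowtie2 2.5.0, Picard 2.18.2, bedtools 2.30.0, MACS2 2.2.9.1 and deepTools 3.5.4, with no role or setting. How duplicates were treated and whether reads were shifted for the transposase are not given in the sources used here. The authors deposited 1 narrowPeak list per library, so peaks were not called on pooled libraries. Each deposited line gives a fold over background (a ratio), a −log10 p, a −log10 q, an integer score and a summit position, all of them the authors' peak caller's own values, used here to describe and rank peaks within a list.

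Lines within 1 library can share an interval and differ in summit, and each was counted as a peak. Overlapping lines (minimum 1 bp) of the 4 lists were merged into regions, and a region took its highest −log10 p in each library. Regions listed in all 4 libraries were ranked within each library. Log2 ranks were compared between genotypes with limma 3.58.1 (R 4.3.3, trended moderated variance) over all 122749 common regions with Benjamini-Hochberg adjustment. The SE of a shift is limma's. Medians of windows with at least 10 common regions and numbers of peaks were compared by an exact permutation test. The limma step was also run on simulated data in which noise was independent between neighbouring regions. Such data hold no stretch of shared shifts like that around Pknox2, so the run does not bear on the call there. Gene positions, which lack strand in the table used, came from RefSeq GRCm38.p6, the assembly also called mm10, and a gene end means within 1 kb of either table end. Other software was Python 3.11.15, pandas 2.3.3, NumPy 2.4.6 and matplotlib 3.10.9.

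The members, the lists of other TALE genes and of markers, and the tests were chosen with earlier results of these data known. Regions named for each gene are those at its ends, the strongest by mean rank, every region past the adjusted p, every region listed in both libraries of 1 genotype only, and the largest shift with ranks apart. Replicate numbers did not pair the libraries, since the replicate differences of wt and Hox-/- had a correlation of 0.00409 over the common regions. The depth in reads is unknown, so no interval or floor is given. Alternatives changed the ranking value, the window, the lines used and the libraries used.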

Additional observations from a re-analysis of the deposited data

How the results depend on the processing

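The 1 call at an adjusted p under 0.05 became 0 when regions were ranked by fold or set against the running median of their neighbours, and 0 to 1 when 1 library was left out (0 without either Hox-/- library, 1 without either wt library). Of all regions 0% by fold, 0.013% against neighbours, 0% without either Hox-/- library and 0.0372% and 0.0373% without wt replicate 1 and 2 were called higher, against 0.0301%. It became 2 with normal scores and 2 with only the stronger 100000 regions, while the share of all regions called higher went from 0.0301% to 0.155% and 0.323%. A replicate block gave 5, and 0.47% of all regions, although the numbers do not pair the libraries. Regions ranked higher without overlap, 50 in all, numbered 33 of 91 in gene bodies alone (36.3%, against 20.5% of all), 32 against nearby regions (17.9%, as for the 32 lower, against 20.2% and 20.3% of all), 41 by fold (34 lower), 25 without Pknox2 (an alternative added after seeing the data) and 74 to 84 with 1 library left out (34.3% to 37.1% of all regions). Those ranked lower, 26 in all, numbered 12 in bodies (13.2%) and 45 to 56 with 1 library left out (33.8% to 36.0% of all), when 3 ranks overlap less often by construction. Regions listed in wt only, 7 in all, numbered 4 with the 190000 strongest lines (2.65% of all regions), 12 when a line had to cover 50% of a region (4.83%), 4 in bodies (3.84%) and 13 to 19 with 1 library left out (6.83% to 10.2%). Those listed in Hox-/- only, 1 in all, numbered 2 with the 190000 (2.07%) and 3 with the 100000 strongest lines (2.1%), 0 in bodies (1.23%) and 4 to 12 with 1 library left out (2.88% to 5.84%). Genes with higher medians in Hox-/- numbered 2 by fold, 3 in bodies, 3 with 100 kb flanks and 2 to 4 with 1 library left out. Genes with lower medians numbered 2 by fold, 2 with 100 kb flanks and 2 with any 1 library left out. At first 1 gene was higher and 1 lower, where 19.3% and 21% of gene windows with at least 10 common regions were. The shares of all gene windows under these alternatives were not computed, so the gene numbers cannot be set against them. In bodies the median of Pbx2 rests on 1 region, that of Meis3 on 2 and that of Pbx3 on 4. The total of peaks in Hox-/- minus that in wt, −8.5, became 14.5 with the 190000 strongest lines. With a wt library left out it was −23.5 (the first) or 6.5 (the second), and with a Hox-/- library left out 1.0 (the first) or −18.0 (the second), so its direction changed with the library. The difference of medians changed sign for Pbx3 in its body (0.19) and for Pknox2 minus its flanks (−0.17). Among genes whose medians overlapped to begin with, it changed sign under 6 of 13 alternatives for Meis1, 5 for each of Pbx2, Meis3 and Pknox1, 4 for Pbx4 (−0.15 by fold, −0.20 in the body) and 0 for Meis2. Leaving out a library over unchanged regions was added after seeing the data. Beyond the fewer regions or libraries that an alternative uses, the cause was not tested. With 1 library left out, the lone library of a genotype is assumed to vary like the others. The unknown depth limits comparisons of listed against not listed regions.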
